A study of Sus scrofa with 24 samples.

Results

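Mitochondrial ribosomal protein genes were followed in pig longissimus dorsi, the long back muscle, across prenatal development and into adult life. They were taken as every gene whose array-annotation symbol is MRPL or MRPS followed by a number, which gave 58 of the 6765 genes that the array names through probe sets with exactly 1 symbol. Of these, 36 have MRPL symbols and 22 have MRPS symbols. The symbols are carried by 77 probe sets, and for the 14 genes with more than 1 probe set the one with the highest mean over all arrays stood for the gene. MRPL22 and MRPL55, whose 6 probe sets carry several gene entries, were left out.

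The study measured RNA on Affymetrix Porcine Genome Arrays in Pietrain pigs (Pi), a heavily muscled breed, and in German Landrace pigs (DL). Fetuses were taken 35, 63 and 91 days after conception (dpc), and adults formed the last stage, which makes 8 groups of 3 RNA pools each, a, b and c. No treatment or genetic modification is given for any group, and the labels state neither the animals in a pool nor their sex nor the adults' age. The stages follow the titles and the stage labels; a free-text description instead calls the pools of all 3 fetal stages peripubertal, a conflict that the labels do not settle. Each p-value therefore measures a difference between groups of pools against the spread between pools within groups. That spread is taken over all 8 groups, not only those compared, and may be partly technical.

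Mitochondria carry their own ribosomes, which translate the few proteins encoded by mitochondrial DNA, all of them parts of the respiratory chain and ATP synthase. The ribosomal RNAs come from mitochondrial DNA, while every protein of the mitochondrial ribosome is encoded in the nucleus, translated in the cytosol and imported. Some of these proteins have relatives in bacterial ribosomes and others exist only in mitochondria. In skeletal muscle the organelle supplies ATP for sustained contraction, and its content differs between fibre types.

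Of the 58 genes, 37 encode proteins of the large subunit, which joins amino acids, and 20 encode proteins of the small subunit, which decodes the mRNA. MRPS30 counts among the 37, since its protein sits in the large subunit despite the symbol. MRPS36 belongs to neither, because its product is now known as KGD4, a component of the oxoglutarate dehydrogenase complex. Proteins with bacterial relatives number 34 and mitochondria-specific ones 23. All 58 genes lay above the background ceiling on all 24 arrays, and their log2 intensities ran from 2.37 to 12.14. The lowest value, of MRPS23 in DL 91 dpc pool c, was barely above that array's ceiling of 2.353.

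The deposited log2 values had been equalised between arrays, so each change below is relative to the other probe sets and cannot show a change in total mRNA. No source names the base of the log; the range fits base 2, and every fold rests on that reading. A gene was called higher or lower where limma's adjusted p over 23999 probe sets was below 0.05. Levels of different genes are not compared, because each probe set has its own sensitivity. The spiked hybridisation controls, bacterial transcripts added during the assay, read higher at the later stages. Scaling to them would shift every probe set by -0.81 log2 units for 63 against 35 dpc, by -0.15 for 91 against 63 dpc, by -0.20 for adult against 91 dpc and by -1.16 for adult against 35 dpc.

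The first question was how the levels moved over the whole span. Adult samples exceeded 35 dpc samples in 42 of the 58 genes and lay below it in 7, with a median log2 change of 1.08. Among all 6765 genes 40.4% were higher and 34.6% lower, with a median of 0.12. Scaled to the hybridisation controls, the same comparison called 17 higher and 24 lower and the median turned to -0.08, against -1.08 over all probe sets and 18.8% of all genes higher and 63.5% lower. The tissue mix differed between these stages: all 6 neural markers (median -10.3), all 6 markers of dividing cells (median -6.13) and 5 of 6 connective tissue markers were lower in adults, and their part in the result was not tested. The adult stage had the highest mean for 44 of the 58 genes (75.9%, against 43.3% of the 4609 genes above background on all arrays). The 35 dpc stage had the lowest mean for 35 of them (60.3%, against 38.8%).

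**Figure D1:**
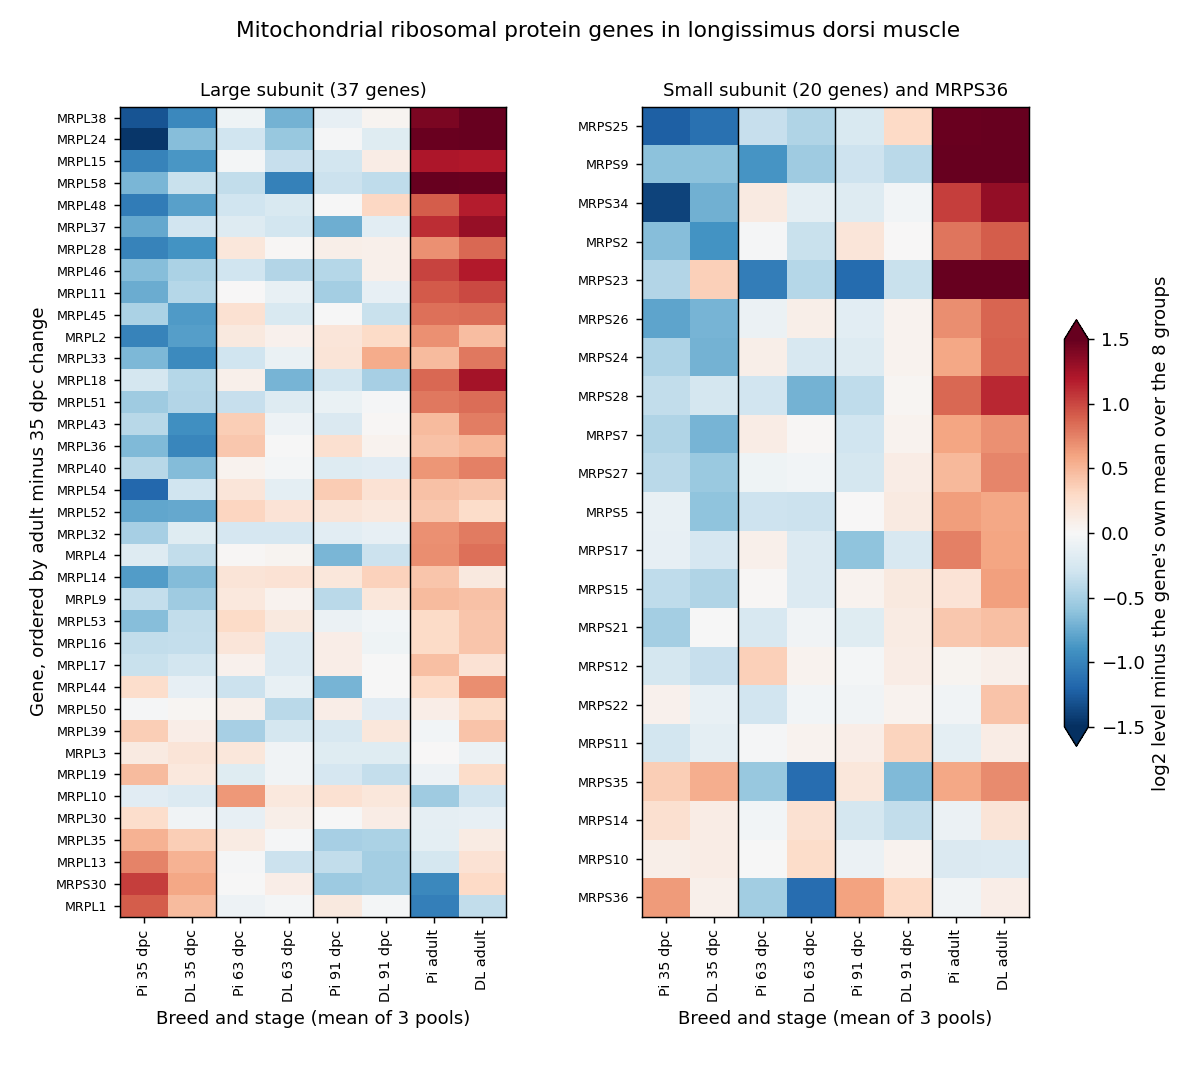
Heat map of the 58 genes (rows, large-subunit genes on the left, small-subunit genes and MRPS36 on the right) in the 8 groups (columns, Pi left of DL at each stage). Colour gives the mean log2 level of 3 pools minus the gene's own mean over the groups, red above and blue below, with colours saturating at 1.5. Most rows run from blue at 35 dpc to red in adults, and MRPL1, MRPS30, MRPL13 and MRPL35 at the foot of the left panel run the other way. Scaled to the hybridisation controls, the median change from 35 dpc to adult is -0.08, against -1.08 over all probe sets.

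MRPS25, a mitochondria-specific protein of the small subunit, had the largest rise over the whole span. Its log2 level ran from 10.65 through a median of 10.81 to 11.02 in the 6 adult pools, against 7.99, 8.06 and 8.44 in the 35 dpc pools. Every adult pool lay above every 35 dpc pool, and the difference was 2.71 ± 0.10 (SE), or 6.52-fold (adjusted p = 3.06e-14). MRPL38, a protein of the central protuberance of the large subunit, had a lowest, median and highest value of 10.15, 10.26 and 10.77 in adults, against 7.39, 7.64 and 8.01 at 35 dpc. Those pools were also fully apart, at 6.43-fold (log2 change 2.68 ± 0.13, adjusted p = 2.46e-12).

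MRPS9, a small-subunit protein with a bacterial relative, had 9.46, 9.61 and 9.91 in adults as lowest, median and highest value, against 7.19, 7.32 and 7.51 at 35 dpc. All adult pools were higher, at 4.90-fold (log2 change 2.29 ± 0.12, adjusted p = 6.41e-12), while a dimmer probe set of MRPS9 rose by 0.84 ± 0.26 (adjusted p = 0.00827). MRPS34, a mitochondria-specific small-subunit protein, reached 9.49, 9.76 and 9.98 in adults, against 6.91, 7.39 and 8.14 at 35 dpc. The adult pools again lay above all those of 35 dpc, by 2.24 ± 0.15 (4.72-fold, adjusted p = 1.55e-10). MRPL24, which lies near the exit of the peptide tunnel, spread more widely, with 6.76, 7.45 and 8.13 in adults, against 3.57, 5.02 and 5.65 at 35 dpc. The stages did not overlap, at 6.21-fold (log2 change 2.63 ± 0.36, adjusted p = 3.19e-06).

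The genes that fell over the same span were led by MRPL1, the protein of the flexible stalk beside the site where spent tRNA leaves. It had 7.25, 7.81 and 8.34 in adults as lowest, median and highest value, against 8.76, 9.19 and 9.54 at 35 dpc. Every adult pool was lower than every 35 dpc pool, and the log2 change was -1.38 ± 0.10, 2.61-fold lower in adults (adjusted p = 4.76e-10). MRPL13, a large-subunit protein with a bacterial relative, stood at 9.13, 9.63 and 9.96 in adults, against 10.04, 10.15 and 10.54 at 35 dpc. These pools did not overlap either (log2 change -0.66 ± 0.10, adjusted p = 1.59e-05).

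MRPS30 had 3.77, 6.08 and 7.73 in adults, against 6.76, 7.07 and 7.47 at 35 dpc. Of the adult pools, 5 lay below every 35 dpc pool and DL adult pool a lay above all of them, with a change of -1.14 ± 0.40 (adjusted p = 0.0192). It did not pass in a fit on these stages alone (adjusted p = 0.0630), without Pi adult pool c (-0.75, adjusted p = 0.0585) without DL adult pool c (-0.86, adjusted p = 0.0628), or with the 3' minus 5' difference of the GAPDH control, a measure of RNA quality, as a covariate (-1.66, adjusted p = 0.353). MRPS10, of the head of the small subunit, had 9.2, 9.45 and 9.59 in adults, against 9.63, 9.71 and 9.84 at 35 dpc. It was lower in every adult pool, by little (log2 change -0.31 ± 0.10, adjusted p = 0.00968), and did not pass with the GAPDH covariate (-0.70, adjusted p = 0.0698).

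MRPL35, a large-subunit protein, was lower in adults through its brightest probe set (-0.46 ± 0.14, adjusted p = 0.00812) and higher through another probe set near background (0.41 ± 0.16, adjusted p = 0.0338). The remaining probe set of MRPL35 stood at -0.79 ± 0.49 and did not pass (adjusted p = 0.167). The probe sets that passed thus disagree in direction, and the probe set that rose is the dimmest of them. MRPL3 and MRPL30, both large-subunit proteins, were the other falls that passed, at -0.21 ± 0.08 and -0.24 ± 0.08.

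The next question was when the rise took place. Between 35 and 63 dpc, 29 of the 58 genes were higher and 7 lower at 63 dpc, with a median log2 change of 0.30. The background was 30.5% higher and 24.1% lower among all genes, with a median of 0.03, and 39.9% and 26.9% among those above background on all arrays. The share that rose, 50.0%, was above either background, and the share that fell, 12.1%, was below either. Scaled to the hybridisation controls, the median was -0.51 with 1 gene higher and 33 lower, against a median of -0.81 over all probe sets. On that scale 10.2% of all genes were higher and 61.7% lower, so the members' share of rises was below that of all genes. The large subunit had 20 higher and 5 lower of 37 (median 0.35) and the small subunit 9 higher and 1 lower of 20 (median 0.18).

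**Figure D2:**
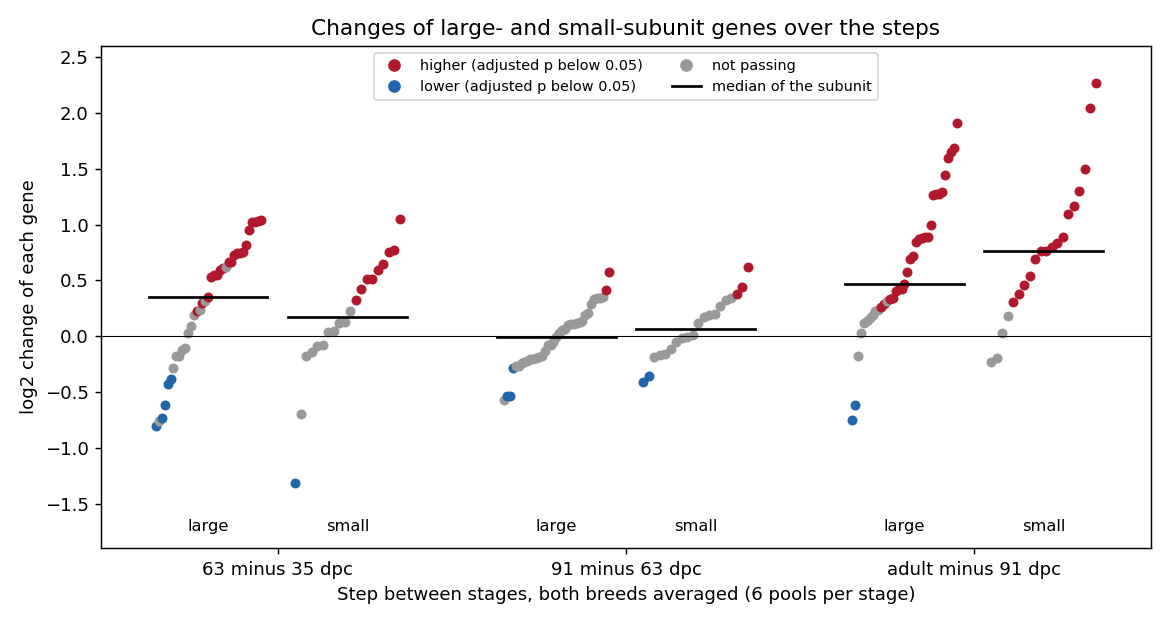
Log2 change of each of 37 large-subunit and 20 small-subunit genes (points, sorted within each cloud) over the 3 steps between stages, both breeds averaged, with 6 pools per stage; MRPS36 is not drawn. Red and blue mark genes called higher and lower, grey those that did not pass, and black bars the medians. The first step holds rises and falls, the middle step lies around 0, and in the last step most points are red. Scaled to the hybridisation controls, the median of the first step is -0.51, against -0.81 over all probe sets.

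MRPS34 had the largest rise of the step. Its lowest, median and highest values were 8.33, 8.57 and 8.68 at 63 dpc, against 6.91, 7.39 and 8.14 at 35 dpc. Every 63 dpc pool was higher, at 2.07-fold (log2 change 1.05 ± 0.15, adjusted p = 1.06e-05). MRPL28, a large-subunit protein with a bacterial relative, had 9.59, 9.76 and 9.93 at 63 dpc, against 8.48, 8.76 and 8.91 at 35 dpc. The pools were fully apart (1.04 ± 0.10, adjusted p = 8.62e-08).

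MRPL52, a mitochondria-specific large-subunit protein, stood at 10.77, 10.94 and 10.98 at 63 dpc, against 9.77, 9.88 and 9.95 at 35 dpc. Its pools did not overlap (1.03 ± 0.09, adjusted p = 1.37e-08), while a dimmer probe set of MRPL52 stood 0.48 higher and did not pass (adjusted p = 0.505). MRPL2, which lies close to the centre where peptide bonds form, rose by 1.02 ± 0.10 (adjusted p = 8.04e-08). MRPL36, a small large-subunit protein with a bacterial relative, rose by 1.02 ± 0.17 (adjusted p = 4.80e-05). For both, every 63 dpc pool exceeded every 35 dpc pool.

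Of these rises, only that of MRPL52 also passed after scaling to the hybridisation controls (0.22, adjusted p = 0.0388). MRPS34, MRPL28, MRPL36 and MRPL2 were then between 0.21 and 0.24 and did not pass.

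The falls of the step were larger than its rises for a pair of genes. MRPS35, a mitochondria-specific small-subunit protein, had 5.47, 6.39 and 6.90 as lowest, median and highest value at 63 dpc, against 7.48, 7.71 and 7.78 at 35 dpc. Every 63 dpc pool was lower, at 2.50-fold below 35 dpc (log2 change -1.32 ± 0.16, adjusted p = 1.44e-06). MRPS36 had 5.13, 6.15 and 6.52 at 63 dpc, against 6.66, 7.35 and 7.53 at 35 dpc, again with no overlap (-1.20 ± 0.24, adjusted p = 0.000477).

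MRPL13 changed by -0.80 ± 0.10 (adjusted p = 3.20e-06) and MRPL1 by -0.74 ± 0.10 (adjusted p = 5.77e-06). MRPL39, a mitochondria-specific large-subunit protein, changed by -0.61 ± 0.12 (adjusted p = 0.000345). All 3 were lower in each 63 dpc pool than in each 35 dpc pool. Nearest to 0 over this step were MRPL18 (0.03 ± 0.20), a neighbour of the central protuberance, MRPS10 (0.04 ± 0.10) and MRPS5 (0.04 ± 0.13), none of which passed.

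The tissue mix moved over the same step. All 6 measured neural markers fell, their summed log2 level being 5.78 to 7.10 at 63 dpc and 15.22 to 15.53 at 35 dpc, with SNAP25 and RTN1 at background in all 63 dpc pools. All 11 measured skeletal muscle markers rose, with sums of 17.78 to 17.87 at 63 dpc and 16.04 to 16.31 at 35 dpc. In such bulk samples fewer cells of a type and less RNA per cell cannot be told apart, and the part of this shift in the ribosomal protein changes was not tested.

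Between 63 and 91 dpc few of the genes moved. Those higher at 91 dpc numbered 6 and those lower 5, with a median of 0.02. The shares, 10.3% and 8.62%, were below the background of 12.9% higher and 13.7% lower. With the hybridisation controls as the scale the counts were 3 higher and 8 lower and the median -0.13, where 8.32% of all genes were higher and 18.8% lower.

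MRPS36 returned towards its earlier level, with 6.85, 7.27 and 7.78 as lowest, median and highest value at 91 dpc, against 5.13, 6.15 and 6.52 at 63 dpc. All 91 dpc pools were higher (1.29 ± 0.24, adjusted p = 0.000853). MRPS35 had 6.40, 6.91 and 7.77 at 91 dpc, against 5.47, 6.39 and 6.90 at 63 dpc. Its pools overlapped, and the change of 0.62 ± 0.16 (adjusted p = 0.00923) did not pass in a fit on the fetal groups concerned (adjusted p = 0.0729).

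MRPL33, a large-subunit protein with a bacterial relative, had 9.26, 9.63 and 9.88 at 91 dpc, against 8.68, 9.10 and 9.18 at 63 dpc, with no overlap (0.57 ± 0.10, adjusted p = 0.000343). MRPL48, a mitochondria-specific large-subunit protein, rose by 0.42 ± 0.07 (adjusted p = 0.000410), a call lost after scaling to the hybridisation controls (0.27, adjusted p = 0.0611). MRPS25 rose by 0.44 ± 0.10 (adjusted p = 0.00388), and its call was lost under that scaling too (0.29, adjusted p = 0.111). MRPS5, at 0.38 ± 0.13, was the remaining rise (adjusted p = 0.0489).

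The 5 falls were small. MRPL35 changed by -0.54 ± 0.14 (adjusted p = 0.0108) through its brightest probe set, with no overlap of pools, whereas its next probe set had a value of 0.42 that did not pass. MRPL4, which lines the peptide tunnel, changed by -0.53 ± 0.16 (adjusted p = 0.0273), a call lost without any of 6 pools, namely Pi 63 dpc b or c, DL 63 dpc a, Pi 91 dpc b or c, or DL 91 dpc c (changes of -0.53 to -0.42), and in a fit on the fetal groups concerned (adjusted p = 0.0822). MRPS14 and MRPS17, small-subunit proteins with bacterial relatives, changed by -0.41 ± 0.12 and -0.35 ± 0.09, and MRPL53, a mitochondria-specific protein, by -0.28 ± 0.06. In these 4 genes the pools of the stages overlapped. MRPS24, MRPS23 and MRPL28 lay nearest to 0.

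On the deposited scale and without a covariate, the step from 91 dpc to adult had the largest median rise. With the GAPDH covariate its median was smaller, as given below. Adult muscle was higher in 42 of the 58 genes and lower in 2, with a median of 0.63, while 35.4% of all genes were higher and 31.5% lower, with a median of 0.08. Of genes above background on all arrays, 41.7% were higher and 35.2% lower. The share that rose, 72.4%, was above each of these and the share that fell, 3.45%, far below. In the small subunit 16 of 20 rose and none fell (median 0.76), and in the large subunit 26 of 37 rose and 2 fell (median 0.47). This direction was kept after scaling to the hybridisation controls, with 32 higher, 6 lower and a median of 0.43, where 27.5% of all genes were higher and 37.7% lower.

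MRPS23, a mitochondria-specific small-subunit protein with a dim signal before birth, had the largest fitted change. It stood at 5.67, 6.38 and 6.92 in adults as lowest, median and highest value, against 2.37, 4.25 and 6.16 at 91 dpc. The 91 dpc pools spread over more than 3 log2 units and reached into the adult range (2.27 ± 0.53, adjusted p = 0.00119). MRPS9 had 9.46, 9.61 and 9.91 in adults, against 7.31, 7.56 and 7.82 at 91 dpc. These pools were far apart, at 4.12-fold (2.04 ± 0.12, adjusted p = 8.53e-11), and a dimmer probe set rose by 1.38 ± 0.26 (adjusted p = 0.000173). Averaged over the breeds no earlier step of MRPS9 passed, while within Pi it was higher at 91 than at 63 dpc by 0.56 ± 0.17 (adjusted p = 0.0411).

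MRPL58, an enzyme that frees stalled peptides and was built into the large subunit in mammals, had 9.35, 9.68 and 9.93 in adults, against 7.06, 7.82 and 8.15 at 91 dpc. All adult pools were higher, at 3.76-fold (1.91 ± 0.20, adjusted p = 1.88e-07). MRPL24 rose by 1.68 ± 0.36 (adjusted p = 0.000579). MRPL37, a mitochondria-specific protein of the large subunit, had 11.35, 11.44 and 11.84 in adults, against 9.40, 9.81 and 10.31 at 91 dpc. It was 3.14-fold higher with no overlap (1.65 ± 0.10, adjusted p = 1.14e-10).

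The falls from 91 dpc to adult were MRPL1, at -0.75 ± 0.10 (adjusted p = 2.98e-06), and MRPL10, at -0.61 ± 0.13 (adjusted p = 0.000360). MRPL10 is the base of the stalk that recruits translation factors. It had 7.96, 8.55 and 8.82 in adults, against 8.81, 9.18 and 9.31 at 91 dpc, and only the highest adult pool reached the lowest 91 dpc pool. Nearest to 0 were MRPS12 (0.02 ± 0.15), a protein of the decoding centre, MRPL14 (0.03 ± 0.11), at the interface of the subunits, and MRPL54 (0.12 ± 0.12), a mitochondria-specific protein.

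**Figure D3:**
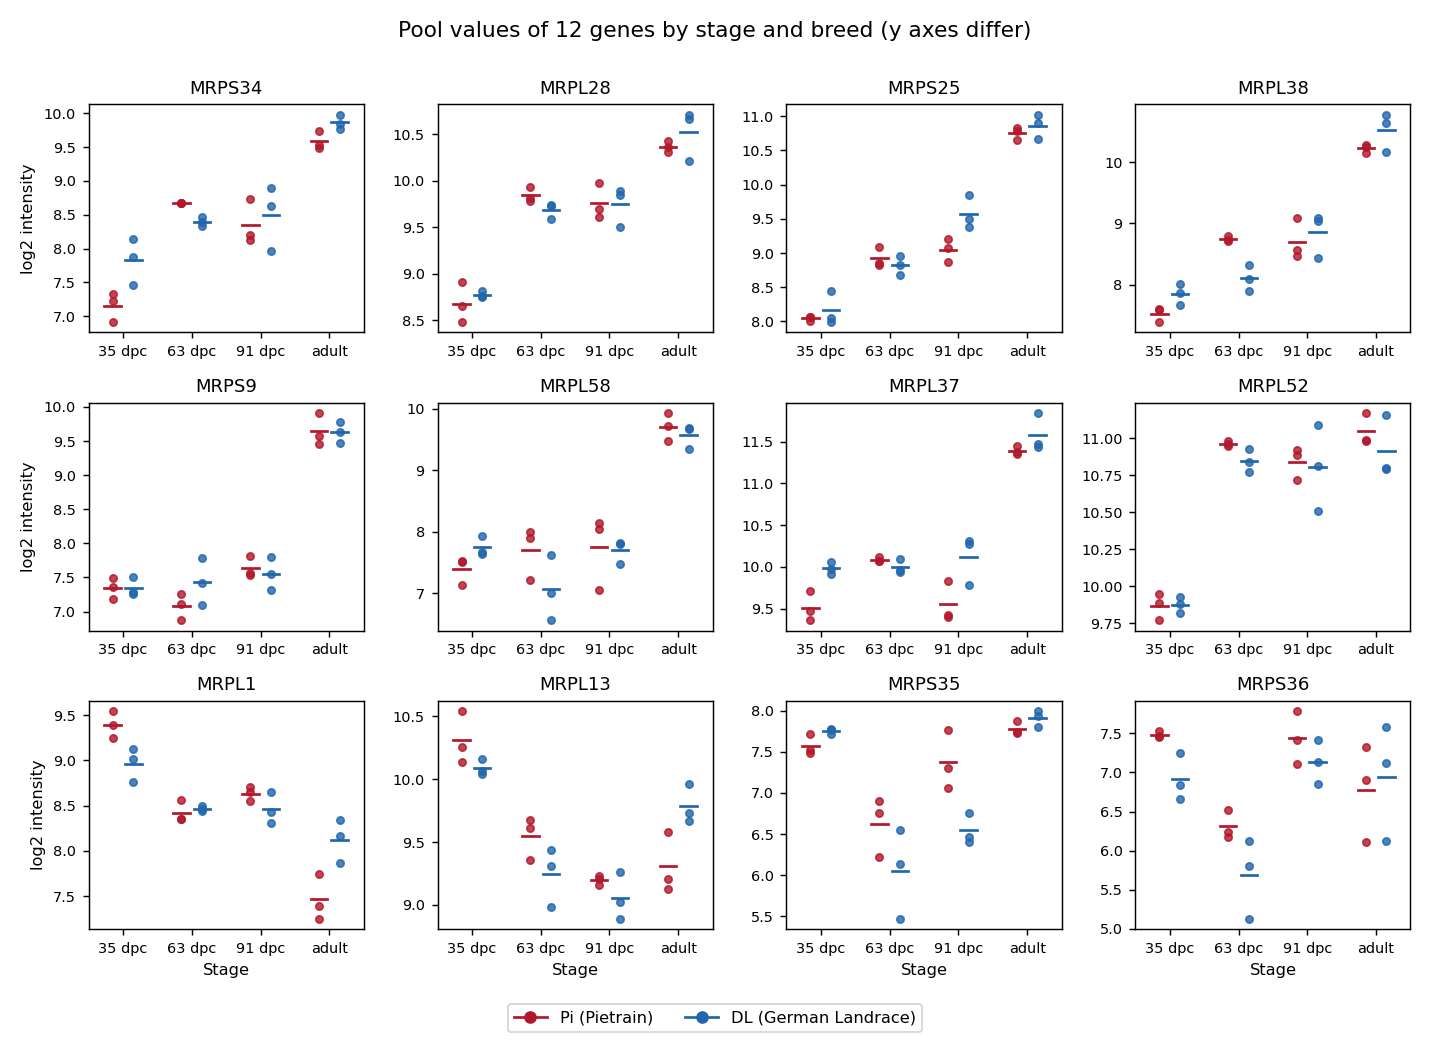
Log2 intensity (y axis, a different scale in each panel) of 12 genes in each pool, by stage (x axis), Pi in red left of DL in blue, with bars at the mean of 3 pools. MRPS9, MRPL58 and MRPL37 have every adult pool above every fetal pool, MRPL52 reaches its adult level at 63 dpc, and MRPS35 and MRPS36 dip at 63 dpc.

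An RNA quality measure moved with the last step. The 3' minus 5' difference of the GAPDH control, which widens as RNA shortens, was -0.61 to -0.39 in the adult pools and 0.25 to 1.31 in the fetal pools, with no overlap. With this difference as a covariate the last step held 10 genes called higher (median 0.20), MRPL58 did not pass (1.47, adjusted p = 0.0811), and MRPS23 and MRPL24 turned to -1.83 and -0.15. Over the whole span 19 genes were then higher and 2 lower (median 0.64), and MRPL24 did not pass (0.66, adjusted p = 0.678). Because the covariate separates adults from fetuses, the stage and the RNA measure cannot be told apart by this fit. No share of all genes under this fit is given here, so its counts do not show whether these genes lost more calls than others. All 6 measured markers of dividing cells also fell, their sums being 7.94 to 8.17 in adults and 11.12 to 11.45 at 91 dpc, with MCM2, MCM3 and TYMS at background in adults, as did 5 of 6 connective tissue markers (sums 12.42 to 12.74 in adults and 15.09 to 15.57 at 91 dpc). The part of these in the last step was not tested.

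The order of calls over the 3 steps, with the breeds averaged and the brightest probe set of each gene, sorts the genes. The most common course, in 19 genes, was higher at 63 dpc, no call at 91 dpc and higher again in adults, as in MRPL11, MRPL15, MRPL38, MRPL45, MRPS2 and MRPS34. Another 11 passed only in the last step, among them MRPL17, MRPL58, MRPS9 and MRPS23. MRPL33, MRPL48 and MRPS25 were called higher in all 3 steps. Counted over the first and last steps alone, 23 genes (39.7%) were higher in both, against 18.9% of genes above background on all arrays. On that count 25.9% were higher in the last step with no call in the first, against 13.5%. Higher in the first step with no call in the last were 8.62%, against 9.09%, and 12.1% passed in neither, against 8.94%.

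A further 5 genes, MRPL14, MRPL36, MRPL52, MRPL54 and MRPS12, were called higher at 63 dpc and in no later step, a share near the background just given. For a pair of them a dimmer probe set was higher in adults than at 91 dpc, by 1.49 ± 0.35 for MRPS12 (adjusted p = 0.00135) and by 1.21 ± 0.48 for MRPL52 (adjusted p = 0.0391). Each gene has a further probe set that did not pass in that step. It stood at -0.18 ± 0.30 for MRPS12 (adjusted p = 0.63) and, near background, at -0.135 ± 0.095 for MRPL52 (adjusted p = 0.238). MRPL14 shows the course. Its lowest, median and highest values were 9.68, 9.82 and 10.06 at 35 dpc, 10.64, 10.79 and 10.92 at 63 dpc, 10.59, 10.84 and 11.16 at 91 dpc and 10.51, 10.98 and 11.13 in adults. The 35 dpc pools stood below all others, and the 3 later stages overlapped.

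In contrast, MRPL13, MRPL19, MRPL35 and MRPS35 were lower at 63 dpc and higher again in adults (6.9%, against 9.18% of genes above background). For MRPS35 the values of adults, 7.73, 7.83 and 7.99, overlapped those of 35 dpc, 7.48, 7.71 and 7.78. MRPL1 alone fell in both the first and the last step. No step passed for MRPL3, MRPL30, MRPL50, MRPS10, MRPS11, MRPS22 and MRPS30. A second probe set of MRPL3 passed in all 3 steps, at -0.47 ± 0.16, -0.91 ± 0.16 and 0.47 ± 0.16 (adjusted p = 0.0270, 0.000558 and 0.0212).

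Genes with bacterial relatives and mitochondria-specific genes were counted apart. In the last step, where 41.7% of genes above background were higher and 35.2% lower, 17 of the 23 mitochondria-specific genes were higher and none lower, with a median of 0.88, and 25 of the 34 genes with bacterial relatives were higher and 2 lower, with a median of 0.44. In the first step, with 39.9% and 26.9% of genes above background, the counts were 14 higher and 2 lower of 23 (median 0.42), and 15 higher and 4 lower of 34 (median 0.27). Both medians of the first step would turn negative under the shift of -0.81, and the difference between these classes was not tested.

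Different probe sets of a gene disagreed in a second case. MRPL33 was higher in adults than at 91 dpc through its brightest probe set (0.26 ± 0.10, adjusted p = 0.0304) and lower through the other (-0.67 ± 0.19, adjusted p = 0.00613). Over the first step both rose, by 0.62 ± 0.10 and 3.17 ± 0.19, and over the middle step by 0.57 ± 0.10 and 0.83 ± 0.19. The probe sets thus had the same direction over both fetal steps and opposite directions from 91 dpc to adult.

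The ribosomes of the cytosol took another course. Of 63 cytosolic ribosomal protein genes 2 were higher and 53 lower in adults than at 91 dpc, with a median of -0.67, where 35.4% of all genes were higher and 31.5% lower. From 35 to 63 dpc 6 were higher and 31 lower (median -0.16), and from 63 to 91 dpc 1 was higher and 10 lower (median -0.09). In each pool the median level, centred per gene over the arrays, was -0.64 to -0.47 in adults and 0.30 to 0.37 at 35 dpc. For the 58 mitochondrial ribosomal protein genes it was 0.42 to 0.72 in adults and -0.48 to -0.36 at 35 dpc, so the 2 families lay on opposite sides at both ends. Since both come from the same arrays, a common scale does not alter the gap between them.

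The nuclear-coded genes of the respiratory chain and ATP synthase, whose products assemble with the proteins made by mitochondrial ribosomes, rose with another timing. Between 63 and 91 dpc, when the ribosomal protein genes had 6 higher and 5 lower of 58, 44 of 58 respiratory chain genes were higher and 1 lower, with a median of 0.45, where 12.9% of all genes were higher and 13.7% lower. In the last step 30 were higher and 10 lower (median 0.26), and in the first 38 and 10 (median 0.38, smaller than the shift of -0.81 that scaling to the hybridisation controls would bring). Over the whole span the medians were 1.15 for the respiratory chain and 1.08 for the mitochondrial ribosome. The difference in timing between the lists was not tested.

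**Figure D4:**
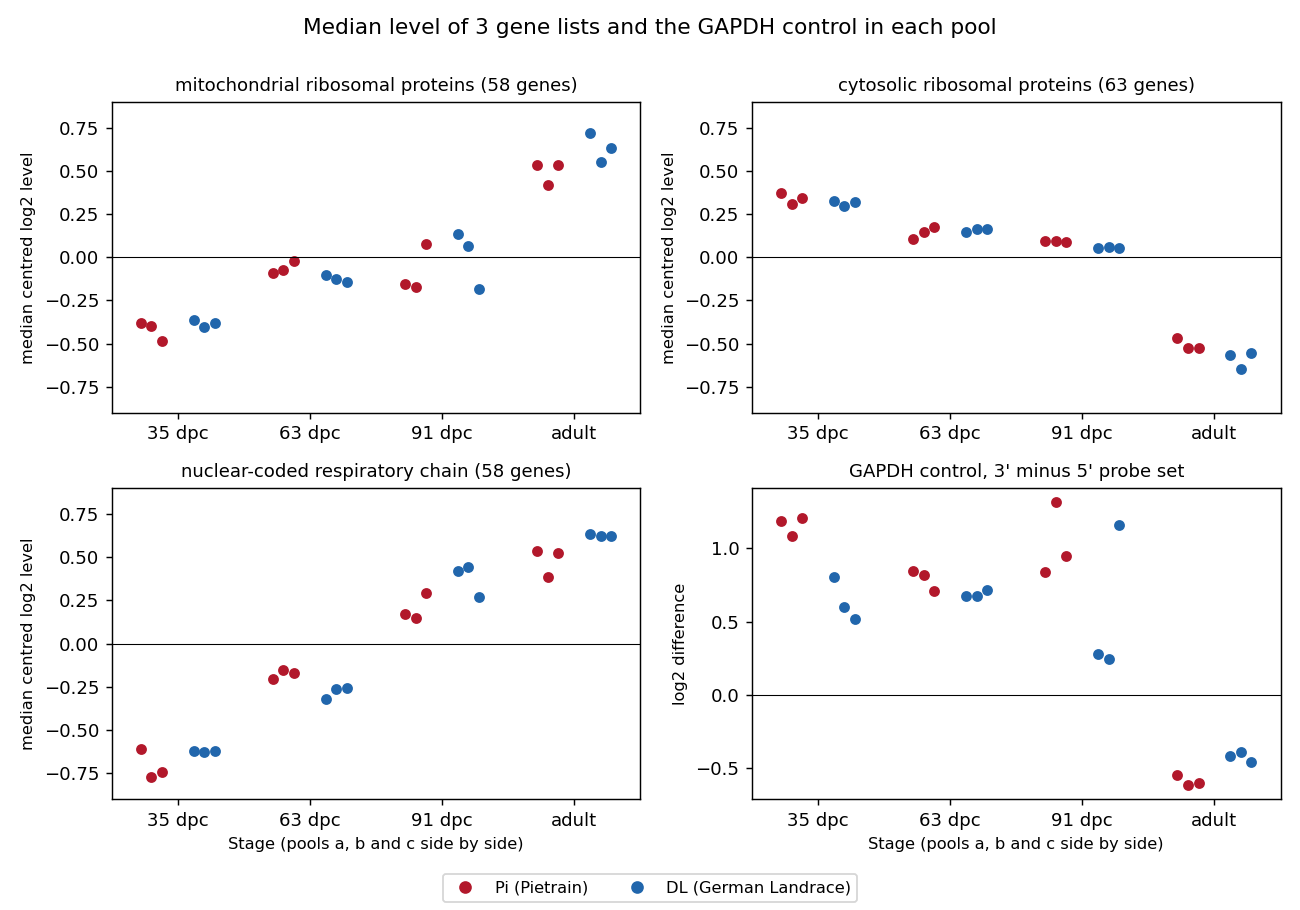
Median of the per-gene centred log2 level over 3 gene lists, and the GAPDH 3' minus 5' difference (lower right), in each of the 24 pools by stage (x axis), Pi in red left of DL in blue. The mitochondrial ribosomal proteins lie between -0.48 and -0.36 at 35 dpc and between 0.42 and 0.72 in adults, and the cytosolic ones fall. The respiratory chain is above 0 in every pool from 91 dpc, and the GAPDH difference is below 0 in adults alone. Scaled to the hybridisation controls, the median change of the mitochondrial ribosomal proteins from 35 dpc to adult is -0.08, against -1.08 over all probe sets.

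A list of 5 genes held mitochondrial ribosomal proteins with symbols outside the MRPL and MRPS series, and OXA1L, the inner-membrane insertase that receives the new proteins. Of these 3 were higher at 63 than at 35 dpc and 3 higher in adults than at 91 dpc, with none lower, where 30.5% and 35.4% of all genes were higher. GADD45GIP1, a large-subunit protein, rose by 1.12 ± 0.15 in the first and 1.6 ± 0.15 in the last step. CHCHD1, of the small subunit, rose by 0.99 ± 0.11 in the first step, and DAP3, a GTP-binding protein of the small subunit, by 0.90 ± 0.10 in the last. OXA1L, the remaining rise of the first step (0.47 ± 0.07), stood at -0.13 ± 0.07 in the last and did not pass.

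The factors that work with the ribosome were mixed. Of 8 mitochondrial translation factors 3 were higher and 4 lower at 63 than at 35 dpc, and 5 were higher and none lower in adults than at 91 dpc. Among all genes 30.5% were higher and 24.1% lower in the first of these steps, and 35.4% and 31.5% in the last. TUFM, the elongation factor that brings tRNA to the ribosome, rose by 1.20 ± 0.09 in the first step, while GFM1, which moves the ribosome along, changed by -0.97 ± 0.16. MTRF1, of the release factor family, changed by -1.64 ± 0.25 in the first step and by 2.95 ± 0.25 in the last. TACO1, an activator of translation of a cytochrome oxidase subunit, rose in all 3 steps, by 1.01 ± 0.18, 0.80 ± 0.18 and 1.37 ± 0.18.

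Of 27 genes of ribosome assembly and mitochondrial RNA handling, 12 were higher and 5 lower at 63 than at 35 dpc (median 0.63, again smaller than the shift of -0.81), and 16 higher and 4 lower in adults than at 91 dpc (median 0.56). LONP1, a protease of the matrix, rose by 1.48 ± 0.08 and RPUSD3, a pseudouridine synthase, by 1.41 ± 0.11 in the first step. MRM3, a methyltransferase of the ribosomal RNA, rose by 2.03 ± 0.47 in the last, and NSUN3, which methylates a mitochondrial tRNA, changed by -2.16 ± 0.22. Of 11 genes that charge mitochondrial tRNAs, 4 rose and 1 fell in the first step and 6 rose and 2 fell in the last. They include GATB, GATC and QRSL1, subunits of the glutamyl-tRNA amidotransferase, which gave 2 of the 4 rises (GATB 1.62 ± 0.54 and GATC 0.48 ± 0.10) and the fall (QRSL1 -0.78 ± 0.13) of the first step and 3 of the 6 rises of the last. The 2 falls of the last step were KARS (-0.46 ± 0.06) and GARS (-0.28 ± 0.10). NARS2 had means of 2.05 to 2.08 in all groups, below the background ceiling. Among all genes 30.5% were higher and 24.1% lower in the first step, and 35.4% and 31.5% in the last.

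The stage course was then examined in each breed. From 35 to 63 dpc, 29 genes were higher and 8 lower in Pi (26.9% and 20.7% of all genes), and 20 were higher and 4 lower in DL (22.5% and 17.8%). From 91 dpc to adult, 34 were higher and 2 lower in Pi (30.4% and 27.4%), and 36 were higher and 1 lower in DL (28.3% and 26.5%). In the middle step Pi had 4 higher and 6 lower (7.94% and 9.25%) and DL 6 higher and 1 lower (9.46% and 6.89%). Whether a gene's step differed between breeds was tested by the interaction: 1 of 58 genes passed for the first step, 0 for the middle step and 1 for the last, against 5.19%, 0.0887% and 3.03% of all genes. At an unadjusted p below 0.05 limma gave 11 genes for the middle step. The shares of all genes above are for adjusted p, so they cannot be set against that count.

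Differences between the breeds within a stage were few, and their shares lay near those of all genes. At 35 dpc 0 genes were higher and 2 lower in Pi than in DL, where 1.94% and 3.58% of all genes were. At 63 dpc limma called 0 in either direction (0.931% and 0.990% of all genes). At an unadjusted p below 0.05, a looser threshold for which no share of all genes is given here, limma gave 13. At 91 dpc 0 were higher and 1 lower (1.35% and 2.28%), and in adults 0 and 2 (3.05% and 3.92%). Averaged over the stages, 1 was higher and 3 lower in Pi (2.87% and 4.95%). Scaled to the hybridisation controls, which read lower in Pi at 35 dpc (9.94 to 10.1 in Pi and 10.4 to 10.6 in DL), 29 genes were higher in Pi at that stage and none lower. That scaling raises every probe set in Pi against DL at 35 dpc. No share of all genes on that scale is given here, so the count is no result about these genes in particular.

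MRPL54 had the largest of these differences. Its values were 6.73, 6.70 and 6.77 in Pi, against 7.70, 7.59 and 7.52 in DL at 35 dpc. Every Pi pool was lower, at 1.83-fold (log2 difference -0.87 ± 0.18, adjusted p = 0.00729). At 63 dpc it stood at 8.07, 7.97 and 8.21 in Pi, against 7.58, 7.76 and 7.94 in DL, where the Pi pools were the higher ones without passing. Its first step was 1.35 ± 0.18 in Pi and 0.15 ± 0.18 in DL, a difference of 1.20 ± 0.25 (adjusted p = 0.0122). Scaled to the hybridisation controls, neither passed (-0.36, adjusted p = 0.185, and 0.57, adjusted p = 0.156).

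MRPS21, a small-subunit protein with a bacterial relative, had 10.62, 10.64 and 10.44 in Pi, against 11.05, 11.08 and 11.09 in DL at 35 dpc. The breeds did not overlap (-0.50 ± 0.11, adjusted p = 0.0137). The call was lost without Pi pool c (-0.44, adjusted p = 0.0772) or DL pool c (-0.49, adjusted p = 0.0505) of 35 dpc, and scaling to the hybridisation controls left 0.005. Over all stages MRPS21 differed by -0.26 ± 0.06 (adjusted p = 0.00916), and with the GAPDH covariate by -0.22 (adjusted p = 0.0851).

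The GAPDH 3' minus 5' difference was 1.08 to 1.21 in Pi and 0.52 to 0.80 in DL at 35 dpc. With it as a covariate neither MRPL54 (-0.73, adjusted p = 0.0906) nor MRPS21 (-0.42, adjusted p = 0.128) passed, and its part in these differences was not otherwise tested.

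**Figure D5:**
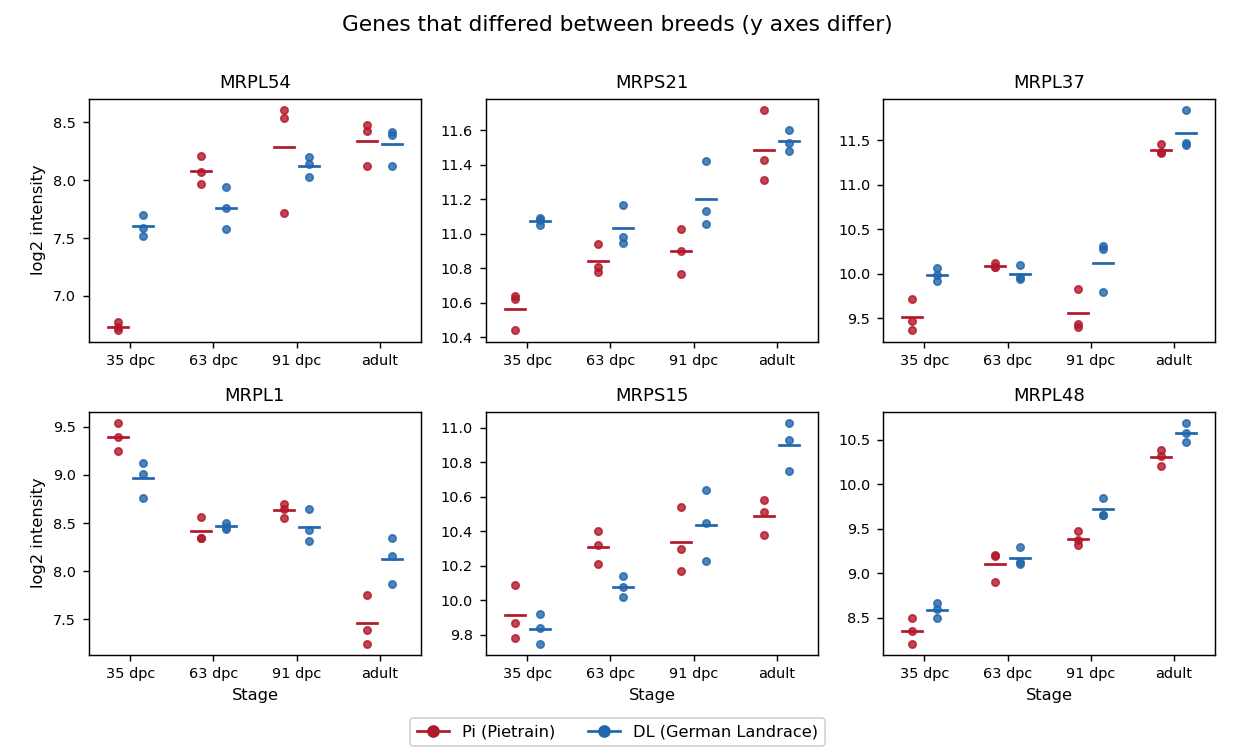
Log2 intensity (y axis, a different scale in each panel) of 6 genes with a breed difference, in each pool by stage, Pi in red left of DL in blue, with bars at the mean of 3 pools. The breeds are apart for MRPL54 and MRPS21 at 35 dpc and for MRPL1 and MRPS15 in adults; scaled to the hybridisation controls, MRPS21 differs by 0.005 at 35 dpc.

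MRPL1 had 7.75, 7.39 and 7.25 in Pi adults, against 8.16, 8.34 and 7.87 in DL adults. All Pi pools were lower (-0.66 ± 0.14, adjusted p = 0.00806). Its log2 difference of adult minus 91 dpc was -1.17 ± 0.14 in Pi and -0.34 ± 0.14 in DL, where it did not pass, and the difference between these steps was -0.83 ± 0.20 (adjusted p = 0.0324). That difference did not pass without any of 7 pools, Pi 91 dpc b or c, DL 91 dpc a or c, Pi adult c, or DL adult a or b, with values of -0.82 to -0.72, nor after scaling to the hybridisation controls (-0.72, adjusted p = 0.184) or with the GAPDH covariate (-0.88, adjusted p = 0.0890). In a fit on the adult groups alone the breed difference did not pass (adjusted p = 0.343).

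MRPS15, a small-subunit protein with a bacterial relative, had 10.38, 10.58 and 10.51 in Pi adults, against 11.03, 10.93 and 10.75 in DL adults. The Pi pools were all lower, yet the difference lay close to the threshold (-0.41 ± 0.12, adjusted p = 0.0434). The call was lost in 16 of the 24 fits that left out a pool, among them those without Pi adult a or c or DL adult a or b (-0.42 to -0.35, adjusted p up to 0.136), and in a fit on the adult groups alone (adjusted p = 0.313).

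MRPL37 had 9.40, 9.43 and 9.83 in Pi, against 10.31, 10.27 and 9.79 in DL at 91 dpc. DL pool c lay inside the Pi range, and the difference was -0.57 ± 0.14 (adjusted p = 0.0396). This DL pool stands apart more widely: its GAPDH difference was 1.16, against 0.28 and 0.25 in DL pools a and b, and the median centred level of the 58 genes was -0.18, against 0.14 and 0.07. Without it 5 genes were lower in Pi than in DL at 91 dpc and 1 higher. No share of all genes is given here for that fit, so the count is no result about these genes in particular. MRPL37 itself did not pass in 9 of the 24 fits that left out a pool, among them those without Pi 91 dpc a or b or DL 91 dpc a or b (-0.57 to -0.48, adjusted p up to 0.187), nor in a fit on the 91 dpc groups alone (adjusted p = 0.320) or with the GAPDH covariate (-0.38, adjusted p = 0.363).

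Over all stages MRPL37 differed between Pi and DL by -0.29 ± 0.07 (adjusted p = 0.0213) and MRPL48 by -0.23 ± 0.05 (adjusted p = 0.0137). MRPL48 had 10.32, 10.21 and 10.39 in Pi adults, against 10.69, 10.48 and 10.57 in DL adults, with no overlap there. With the GAPDH covariate neither passed, at -0.20 and -0.22. MRPL45, which holds the ribosome at the inner membrane near the tunnel exit, was higher in Pi by 0.29 ± 0.08 (adjusted p = 0.0376), a call lost in 13 of the 24 fits that left out a pool (0.26 to 0.30).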

How the data were processed

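RNA of 24 pools was hybridised to Affymetrix Porcine Genome Arrays, per the labels. The deposited log2 values of 24123 probe sets are identical in all 24 columns once sorted, so they were quantile-normalised; GCOS 1.1.1 is named in the submitters' processing notes, and no label describes how probes were summarised. The values span 1.6 to 16.1, which was read as base 2.

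Genes were named through the array annotation: 10069 probe sets had 1 symbol, 198 several and 13732 none. Of the 58 genes, 57 had the same symbol in RefSeq. One group-means model was fitted over all arrays with limma 3.58.1 in R 4.3.3 (16 residual degrees of freedom), with two-sided tests and Benjamini-Hochberg adjustment over 23999 probe sets, leaving out 124 controls, at 0.05. Errors of changes are standard errors. The background ceiling was each array's highest of 23 unspiked control probe sets (2.31 to 2.69). The number of arrays limits the precision. The fit was also run on simulated data, in which probe sets varied independently and few of them changed. Far more were called here, so that run says little about these calls. Figures were drawn with matplotlib 3.10.9.

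The genes and lists were chosen with earlier results of these data known. For each stage comparison the text names the 5 largest rises and falls that passed and the 3 genes nearest to 0, for each breed comparison those that passed, and genes whose probe sets disagree; for other lists, up to 2 each way. MRPL3, MRPL30, MRPS5 over the middle step and the genes named as examples of a course were picked after their values were seen. The last step of PPARGC1A, the middle step of PRKAA2 and NARS2 were picked in the same way. Levels of different probe sets are not comparable, so no ranking by level is given. Pool letters did not pair the samples: in 0 of 28 pairs of groups did every same-letter correlation exceed 0.1 (range -0.077 to 0.091). No scan or slide batch was analysed here. Alternatives changed the scaling, the probe set per gene, the filter, the prior, the weights, the covariates and the arrays.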

Additional observations from a re-analysis of the deposited data

Results flagged for a closer look

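For 2 genes the change over a step differed between the breeds by the interaction test. For MRPL54 the step from 35 to 63 dpc was larger in Pi than in DL by 1.20 ± 0.25 on the log2 scale (limma adjusted p = 0.0122), being 1.35 in Pi and 0.15 in DL. For MRPL1 the step from 91 dpc to adult differed by -0.83 ± 0.20 (adjusted p = 0.0324), being -1.17 in Pi and -0.34 in DL. Among all genes 5.19% and 3.03% passed the same tests. Groups of 3 pools were not tested for outlying values; the effect of each pool on the counts is given by the fits that left it out.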

How the results depend on the processing

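Of 48 named changes 20 passed in the same direction in every alternative, 26 lost their call in at least 1, and 4 turned sign: MRPS21 between breeds at 35 dpc (0.005, hybridisation scaling), MRPL35 from 63 to 91 dpc (0.42, second brightest probe set), and MRPS23 and MRPL24 from 91 dpc to adult (-1.83 and -0.15, GAPDH covariate). The causes were not tested. Scaling to the hybridisation controls gave 1 gene higher, 33 lower and a median of -0.51 for 63 against 35 dpc, 3, 8 and -0.13 for 91 against 63 dpc, 6 lower and 0.43 for adult against 91 dpc, and 17, 24 and -0.078 for adult against 35 dpc. Between Pi and DL it gave 29 higher and 0 lower at 35 dpc, 15 lower at 91 dpc, 5 lower in adults, 0 higher over all stages, and 17 and 0 interactions for the first and last steps. No share of all genes is given here for these breed counts or for the alternatives that follow. With the GAPDH covariate 10 genes were higher in adults than at 91 dpc (median 0.20) and 19 higher and 2 lower than at 35 dpc (median 0.64), while Pi against DL gave 3 higher and 0 lower at 35 dpc, 2 higher at 63 dpc, 1 higher and 0 lower at 91 dpc, and 2 higher and 0 lower over all stages. Array weights gave 11 higher from 63 to 91 dpc, and for Pi against DL 5 higher and 5 lower at 35 dpc, 2 higher at 63 dpc, 1 higher and 6 lower at 91 dpc, 0 lower in adults and 0 higher over all stages, with 7, 1 and 0 interactions over the 3 steps. A fit on only the groups compared gave 1 higher at 35 dpc, 0 lower at 91 dpc and 0 in adults between breeds, and 6 and 0 interactions for the first and last steps. Within DL the falls numbered 4, 1 and 1 over the 3 steps. The second brightest probe set gave a median of 0.93 for adult against 35 dpc, 2 lower between breeds at 91 dpc and 2 higher over all stages; the mean of all probe sets gave 0.99 and 1 higher at 35 dpc. The filter on dim probe sets gave 0 lower at 91 dpc and 1 in adults between breeds.

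The replicate block (pool letter) gave 1 higher and 2 lower between breeds at 91 dpc and 1 lower in adults. It moved no other count of calls by more than 1.5 times. Counting MRPL22 and MRPL55, an alternative chosen after seeing the data, and a robust, intensity-trended prior kept every count within that range.

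Leaving out a pool in turn gave, for 63 against 35 dpc, 27 to 31 higher, 6 to 7 lower and medians of 0.25 to 0.35. For 91 against 63 dpc it gave 5 to 9, 4 to 6 and -0.01 to 0.11, for adult against 91 dpc 41 to 45, 2 to 4 and 0.59 to 0.69, and for adult against 35 dpc 40 to 42, 5 to 7 and 1.02 to 1.14. The 4 falls from 91 dpc to adult came without Pi 35 dpc c, Pi 91 dpc b, DL 91 dpc c or Pi adult a. Between breeds the higher and lower counts were 0 to 1 and 1 to 4 at 35 dpc, 0 to 1 and 0 to 0 at 63 dpc, 0 to 1 and 0 to 5 at 91 dpc, 0 to 1 and 1 to 2 in adults, and 0 to 1 and 3 to 4 over all stages, with interactions of 1 to 3, 0 to 1 and 0 to 2. The highest counts at 35 and 91 dpc, 4 and 5 lower, came without DL 91 dpc c.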

Other observations

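Other genes of the mitochondrion, in lists chosen with earlier results known, moved in both directions, on the deposited scale, where the hybridisation controls would shift the first step by -0.81, the middle step by -0.15 and the last by -0.20. Among all genes 30.5% were higher and 24.1% lower in the first step, 12.9% and 13.7% in the middle and 35.4% and 31.5% in the last. Of 8 genes of mitochondrial DNA replication and transcription, 1 was higher and 2 lower at 63 than at 35 dpc, 0 and 1 at 91 than at 63 dpc, and 4 and 1 in adults than at 91 dpc. TFAM, which packages mitochondrial DNA and starts its transcription, changed by -0.68 ± 0.15 in the first step and by -1.15 ± 0.15 in the last. RRM2B, a ribonucleotide reductase subunit, had the largest rise of that list, 5.04 ± 0.24 in the last step. Of 14 regulators of mitochondrial genes, 5 were higher and 2 lower in the first step, 3 and 1 in the middle step and 6 and 2 in the last. PPARGC1A, a coactivator of mitochondrial genes, rose by 2.45 ± 0.35 between 63 and 91 dpc and by 2.07 ± 0.35 in the last step. PRKAA2, the muscle form of the AMP-activated kinase catalytic subunit, rose by 3.21 ± 0.15 in the first, 0.945 ± 0.154 in the middle and 2.74 ± 0.15 in the last step.

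Of 26 genes of protein import, 12 were higher and 6 lower in the first step, 5 and 3 in the middle and 16 and 8 in the last. The falls of the first and last steps lay near the shares of all genes given above. CHCHD4, the import oxidoreductase of the intermembrane space, rose by 3.12 ± 0.36 and TOMM34 changed by -2.24 ± 0.46 in the last step. Of 10 other genes of mitochondrial structure and metabolism (the prohibitin PHB2, the fission genes DNM1L, FIS1 and MFF, the inner-membrane organisers IMMT and CHCHD3, the porins VDAC1, VDAC2 and VDAC3, and citrate synthase, CS), 8 were higher and 2 lower in the first step, 5 and 0 in the middle and 7 and 2 in the last. CS rose by 1.1 ± 0.07 in the last step.

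Markers of other cell types also moved, and their counts are to be read beside the shares of all genes given above. All 6 endothelial markers were higher at 91 than at 63 dpc, and 4 were lower and 1 higher in adults than at 91 dpc. In that last step 3 of 4 immune markers were higher, 3 of 5 erythroid markers lower, and 2 of 4 adipocyte markers higher with 1 lower. Of 7 liver and plasma markers limma called none between 35 and 63 dpc, 1 lower between 63 and 91 dpc, and 2 higher and 1 lower in adults than at 91 dpc, where their summed log2 level ran from 8.99 to 15.16 between the adult pools.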
